A study of Mus musculus with 16 samples.

Results

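Tropomyosins and other actin-filament genes linked to serum response factor (SRF) were followed in suprachiasmatic nucleus (SCN) slices treated with vasoactive intestinal peptide (VIP). The set holds 9 genes, the tropomyosins Tpm1, Tpm2, Tpm3 and Tpm4, the transcription factor Srf, and Vcl, Actb, Actg1 and Tagln2. Their 13 probes, of 7 genes, are among the 19893 probes (10620 named genes) of the globally normalised table. Tpm2 and Actg1 have no named probe there and were not analysed here. The set was chosen from results of these arrays, with Tpm4 and Tpm3 already known to be higher in CT12 VIP than in CT12 Veh. The values of that comparison are therefore given as a description, without p-values.

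Each of the 16 arrays (Illumina MouseWG-6 v2) measured amplified RNA of 1 organotypic SCN slice sample of C57BL/6J pups, aged postnatal day 8 to 11. All slices were kept in culture for 7 days and then moved to recording dishes with luciferin. The 4 groups, of 4 arrays each, were untreated slices collected at circadian time (CT) 10 (CT10, replicates 1, 3, 4 and 5), slices given vehicle at CT10 and collected 2 h later (CT12 Veh), and slices given VIP at CT10 and collected 2 h (CT12 VIP) or 6 h later (CT16 VIP). VIP was given at 1 µM by the labels, whereas a higher dose stands in the methods text. The series description dates the 6 h collection to CT12, whereas the labels and methods date it to CT16, which is used here. No vehicle group at CT16 was analysed here, so circadian time and time after VIP cannot be told apart in that group. Whether separate animals gave the slices of a group is not stated in the labels, so p-values measure only the spread between these samples.

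Tropomyosins are coiled-coil proteins that lie end to end along actin filaments and govern which other proteins reach them, and each of the 4 genes yields several isoforms by alternative promoters and splicing. SRF binds DNA at the CArG box, which is a pair of C, a run of A or T, and a pair of G. Its cofactors belong to a pair of families. The ternary complex factors (TCFs), phosphorylated by ERK, join it at immediate early genes, and the myocardin-related factors (MRTFs), released from actin monomers when filaments grow, join it at cytoskeletal genes. In the SCN, VIP acts through the VPAC2 receptor and synchronises the clock cells.

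Promoter windows of the members are shown because SRF acts at the CArG box and VIP signals in part through cAMP. They are the RefSeq windows of GRCm38.p6, from 250 bases before to 50 bases after a gene's start, in the direction of transcription. The windows of Srf (chr17:46556113-46556412, minus strand), Vcl (chr14:20929148-20929447, plus strand) and Tpm4 (chr8:72135038-72135337, plus strand) follow. Capitals mark CArG boxes and TGACG, the core of the cAMP response element (CRE), also in its reverse complement CGTCA.
Srf: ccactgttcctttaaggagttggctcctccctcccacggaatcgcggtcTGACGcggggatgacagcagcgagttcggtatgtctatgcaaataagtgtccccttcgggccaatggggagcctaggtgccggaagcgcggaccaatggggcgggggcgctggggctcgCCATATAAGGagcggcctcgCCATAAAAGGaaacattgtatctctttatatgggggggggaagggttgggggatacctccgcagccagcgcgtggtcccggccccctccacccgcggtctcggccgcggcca
Vcl: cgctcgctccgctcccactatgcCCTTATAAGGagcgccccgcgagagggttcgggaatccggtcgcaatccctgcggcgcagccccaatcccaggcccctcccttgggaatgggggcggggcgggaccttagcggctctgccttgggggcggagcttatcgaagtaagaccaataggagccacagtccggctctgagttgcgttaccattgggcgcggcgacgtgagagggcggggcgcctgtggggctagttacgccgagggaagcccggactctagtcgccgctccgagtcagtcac
Tpm4: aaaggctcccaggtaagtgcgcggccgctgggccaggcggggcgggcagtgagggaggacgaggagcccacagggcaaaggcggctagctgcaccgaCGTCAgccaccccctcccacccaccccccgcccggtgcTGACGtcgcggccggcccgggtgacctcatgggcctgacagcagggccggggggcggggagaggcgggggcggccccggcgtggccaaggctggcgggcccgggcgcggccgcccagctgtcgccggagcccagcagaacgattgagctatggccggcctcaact
The members have 9 windows, 2 of them of Tpm3, and Actb has none in the table. On either strand, a CArG box was found in 3 of the 9, those of Srf (CCATATAAGG and CCATAAAAGG, from 82 and 62 bases before the start), Vcl (CCTTATAAGG, from 227 bases before it) and Actg1 (CCATATATGG, from 90 bases before it). Of all 32851 promoter windows, 1.63% hold one. The set was put together from genes linked to SRF, so CArG boxes among its members are no independent result. TGACG was found in 3 of the 9, in Srf, Tpm1 and Tpm4, and in 20.8% of all windows. The full palindrome TGACGTCA, which contains TGACG, was found in none of the 9 and in 1.79% of all, and TGANTCA (the AP-1 letters) in none of the 9 and in 7.81% of all. A match is only a match of letters, and no match says only that these letters are not in this window.

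At a detection p of 0.01 or less, the arrays showed 8019 to 16923 detected probes. The 4 arrays with fewer than 10000 were replicate 1 of CT12 Veh, replicate 1 of CT12 VIP, and replicates 3 and 4 of CT16 VIP. Correlations between arrays lay between 0.927 and 0.983 and no pair was identical. All 8 neuronal and 8 of the 10 SCN marker genes listed have a probe, and of these only Six6 was not detected in some groups (CT12 Veh, CT12 VIP and CT16 VIP), which is as far as the tissue label was checked. Levels below are the authors' globally normalised values on a log2-like scale (variance-stabilised), on which differences of dim probes are compressed, and they are not compared between probes.

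Tpm4, the tropomyosin gene of non-muscle cells and platelets, stood higher in every VIP array than in every array without VIP. Probe 1 read 8.15, 8.11, 7.96 and 7.91 in CT10 (replicates 1, 3, 4 and 5) and 7.74, 7.89, 7.98 and 7.80 in CT12 Veh (replicates 1 to 4). It read 8.86, 8.56, 8.49 and 8.75 in CT12 VIP and 8.77, 8.70, 8.75 and 8.99 in CT16 VIP. The lowest VIP array thus lay above the highest array without VIP. The arrays that chose the gene are among these, and the share of all probes separated in this way was not counted.

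The group means of probe 1 were 7.85 ± 0.11 (SD, n = 4) with vehicle, 8.03 ± 0.12 at CT10, 8.66 ± 0.17 at 2 h of VIP and 8.80 ± 0.13 at 6 h of VIP. The lower 2 groups overlapped, as did the upper 2. Probe 2 was dimmer, and it was detected on 1 of 4 arrays of CT10, 2 of 4 of CT12 Veh and all 8 of the VIP groups. It read 7.50 to 7.62 in CT10, 7.62 to 7.72 in CT12 Veh (all just above CT10 before rounding), 8.26 to 8.50 in CT12 VIP and 8.37 to 8.63 in CT16 VIP. Over the 16 arrays the 2 probes had r = 0.91, most of it from the step between the VIP and the other groups.

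**Figure D1:**
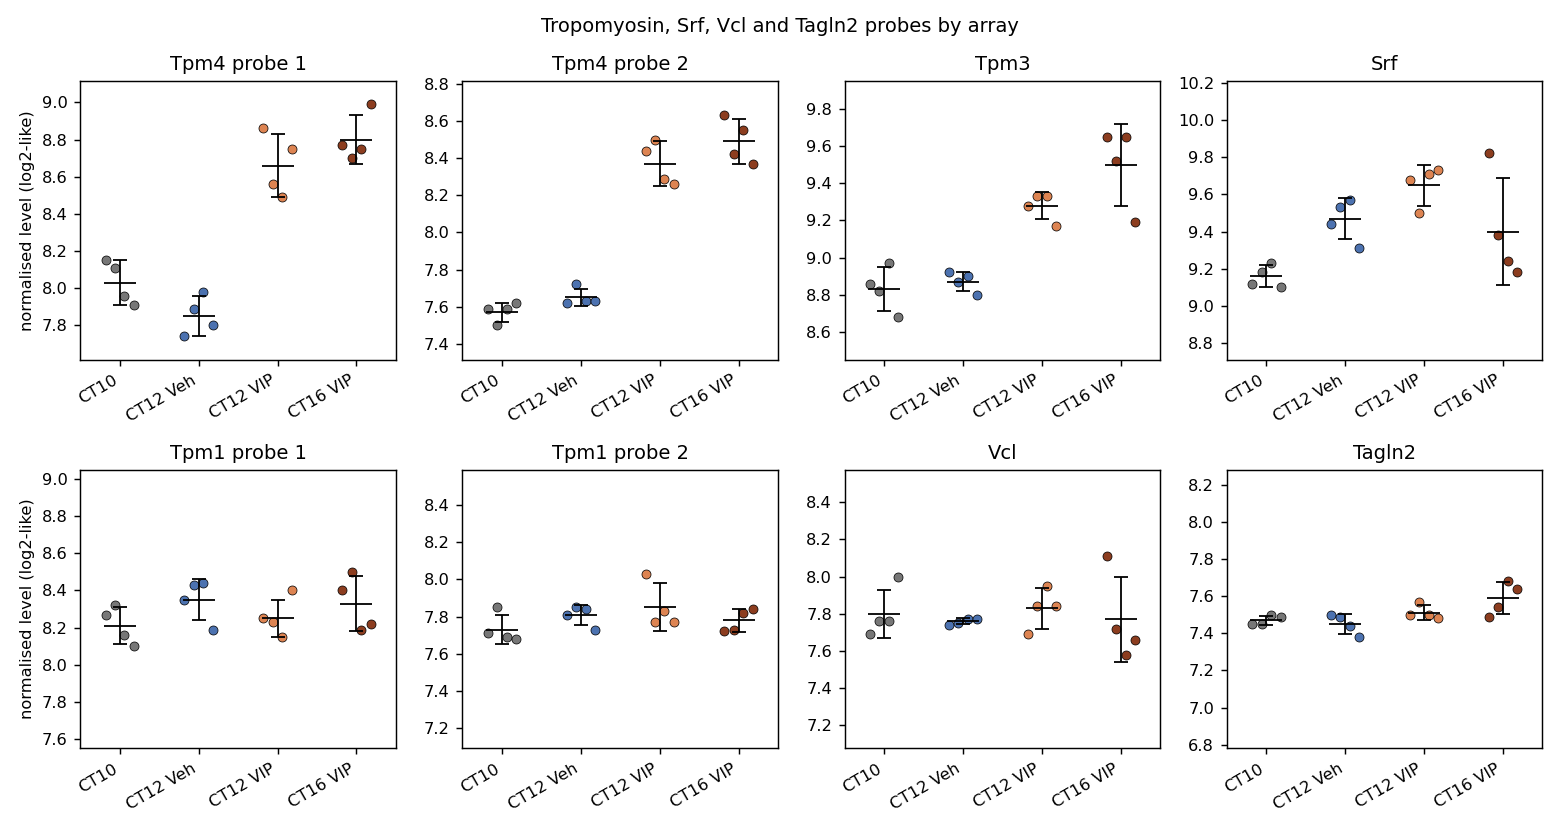
Normalised level (log2-like, y axis, each panel spanning the same range) of 8 probes in the 4 groups (x axis), with 1 point per array and the bar and whiskers giving mean ± SD of 4 arrays. Tpm4 and Tpm3 lie higher in both VIP groups, Srf is lowest in CT10 and spreads in CT16 VIP, and the panels of Tpm1, Vcl and Tagln2 overlap between groups.

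In CT12 VIP vs. CT12 Veh, which chose the set, Tpm4 differed by +0.84 (SE 0.082, probe 1) and +0.75 (SE 0.069, probe 2). CT16 VIP vs. CT10 has no array in common with that comparison, but the members were chosen with earlier results of these arrays known. Its groups also differ in circadian time and in handling, since CT10 was untreated, and these cannot be told apart from VIP. There Tpm4 rose by 0.77 (SE 0.084, limma adjusted p = 0.00011) and 0.92 (SE 0.075, limma adjusted p = 1.06e-05), or 1.71-fold and 1.89-fold on this compressed scale. Against CT12 Veh, the CT16 VIP arrays read higher by 0.95 (SE 0.082) and 0.84 (SE 0.074). Against CT10, the CT12 VIP arrays read higher by 0.63 (SE 0.085) and 0.80 (SE 0.068). Each of these last comparisons reuses 1 group of the comparison that chose the genes, so its values are a description too.

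Between the VIP groups the test was not passed, with CT16 VIP minus CT12 VIP at 0.14 (95% interval -0.06 to 0.33, limma adjusted p = 0.578) for Tpm4 probe 1 and 0.12 (-0.05 to 0.29, limma adjusted p = 0.6) for probe 2. CT12 Veh minus CT10 was -0.18 (-0.34 to -0.02, limma adjusted p = 0.707) for probe 1 and 0.08 (-0.05 to 0.20) for probe 2. Both comparisons reuse a group of the comparison that chose the genes, so their values and tests are only a description. With background correction by neqc in place of the deposited normalisation the differences were larger, at 1.39 and 2.28 for CT16 VIP vs. CT10, 1.86 and 2.00 for CT16 VIP vs. CT12 Veh, 1.17 and 2.07 for CT12 VIP vs. CT10, and 1.64 and 1.79 for CT12 VIP vs. CT12 Veh.

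Tpm3, which encodes a tropomyosin of slow muscle and, by other isoforms, of most non-muscle cells, moved in the same direction by less. It read 8.86, 8.82, 8.97 and 8.68 in CT10, and 8.92, 8.87, 8.90 and 8.80 in CT12 Veh. It read 9.28, 9.33, 9.33 and 9.17 in CT12 VIP and 9.65, 9.52, 9.65 and 9.19 in CT16 VIP. All 8 VIP arrays lay above all 8 others, under the same limits as for Tpm4, and CT16 VIP 4 was the low array of its group.

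The difference that chose the set was +0.41 (SE 0.064). Tpm3 rose by 0.67 (SE 0.1, limma adjusted p = 0.00196) in CT16 VIP vs. CT10, under the limits given above for that comparison. As a description, since 1 group of each had a part in choosing the gene, the difference was 0.63 (SE 0.095) in CT16 VIP vs. CT12 Veh and 0.45 (SE 0.07) in CT12 VIP vs. CT10. CT16 VIP minus CT12 VIP was 0.22 (95% interval 0.02 to 0.43, limma adjusted p = 0.359), and without CT16 VIP 4 it was 0.33 (limma adjusted p = 0.036). CT12 Veh minus CT10 was 0.04 (-0.11 to 0.19). These differences too share a group with the comparison that chose the gene and are only a description.

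Tpm1, the broadly expressed tropomyosin gene that also serves striated and smooth muscle, passed the test in none of the comparisons on either probe. Probe 1, detected on all 16 arrays, had means of 8.21 ± 0.1 (SD, n = 4) at CT10, 8.35 ± 0.11 with vehicle, 8.25 ± 0.1 at 2 h of VIP and 8.33 ± 0.15 at 6 h of VIP. CT16 VIP minus CT10 was 0.12 (95% interval -0.07 to 0.30) for probe 1 and 0.05 (-0.10 to 0.20) for probe 2. Probe 2 was detected on 12 arrays, and the 2 probes had r = 0.10 over the 16 arrays, so they do not order the arrays alike.

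Srf encodes the factor itself, an immediate early gene that carries CArG boxes in its own promoter window as printed above. It read 9.12, 9.18, 9.23 and 9.10 in CT10, and 9.44, 9.53, 9.57 and 9.31 in CT12 Veh. It read 9.68, 9.50, 9.71 and 9.73 in CT12 VIP and 9.82, 9.38, 9.24 and 9.18 in CT16 VIP. CT10 arrays all lay below those of both CT12 groups, CT12 Veh overlapped CT12 VIP, and CT16 VIP spread over the range of the other groups, with replicate 1 the highest of all 16.

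Srf read higher in CT12 VIP than in CT10 by 0.50 (SE 0.067). This comparison reuses the CT12 VIP arrays with which the set was chosen, so the value is only a description. CT10 was also untreated and collected 2 h earlier, which cannot be told apart from VIP there. CT12 Veh minus CT10 was 0.31 (SE 0.069), whose unadjusted p of 0.000447 became 0.51 after adjustment over 16847 probes in limma, although the groups did not overlap, as was so for 3.83% of these probes. The description of CT12 VIP vs. CT12 Veh was +0.19 (SE 0.073). CT16 VIP minus CT12 VIP was -0.25 (SE 0.12, limma adjusted p = 0.398). Without CT16 VIP 1 it was -0.39 (limma adjusted p = 0.0168), and without the 3 of its arrays under 10000 detected probes (CT12 VIP 1, CT16 VIP 3 and CT16 VIP 4) it was -0.05 (limma adjusted p = 0.897). CT16 VIP 1 has the most detected probes of all arrays and CT16 VIP 3 and 4 the fewest of their group, and over the 16 arrays the Srf level had r = 0.48 with the number of detected probes.

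**Figure D2:**
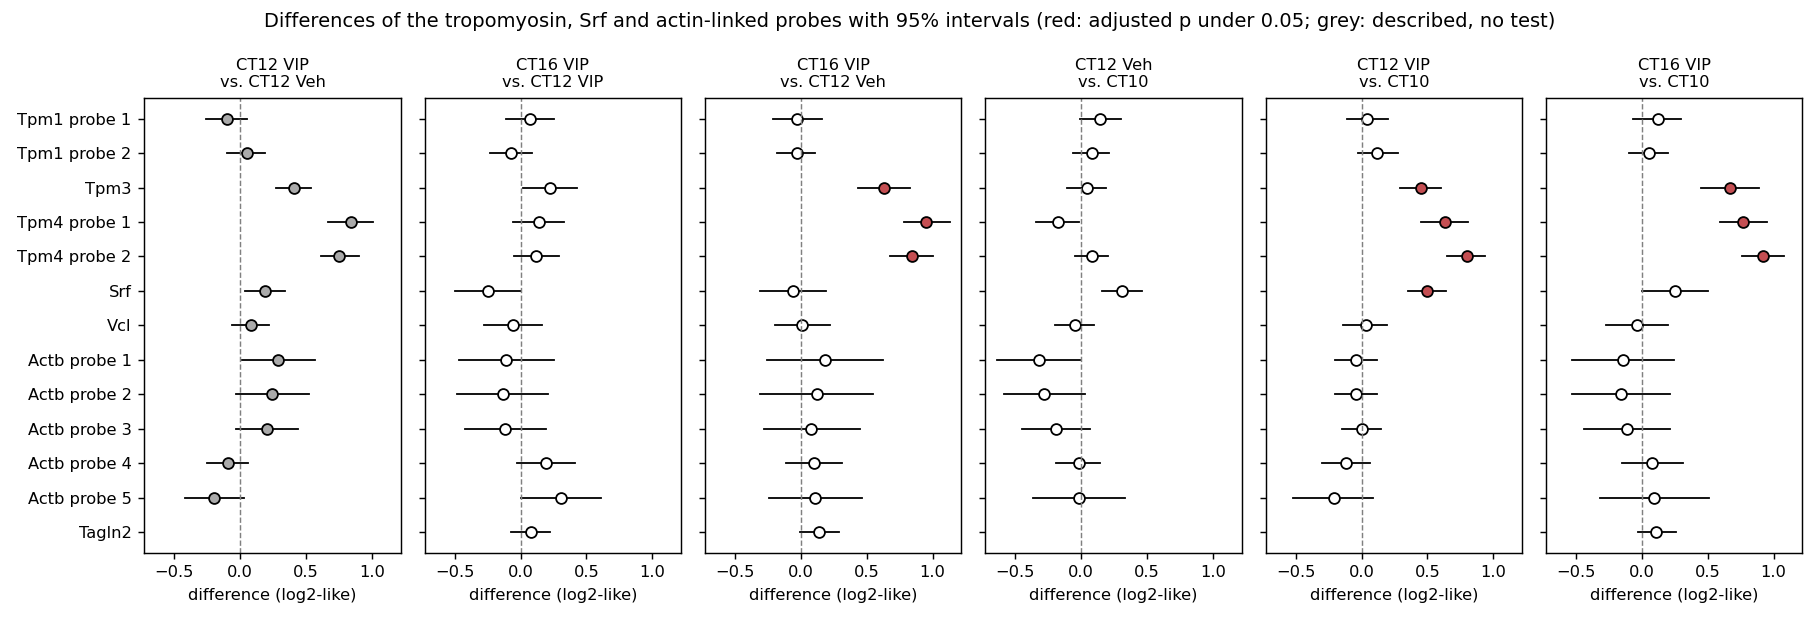
Differences (log2-like, x axis) of the 13 probes (rows) in the 6 comparisons (panels), with lines for 95% intervals from limma. Red points have an adjusted p under 0.05, and the grey points of the first panel are a description of the comparison that chose the set. Tpm3 and both Tpm4 probes are red in the 3 other comparisons of a VIP group with a group without VIP. Of these, CT16 VIP vs. CT10 alone has no array of the first panel. The others reuse a group of that panel, so red points there are a description too. Srf is red in CT12 VIP vs. CT10, and Tagln2 is drawn in the 3 comparisons whose tables hold it.

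Vcl encodes vinculin, which ties actin filaments to integrin and cadherin adhesions. It was dim, detected on 3 arrays of each group but CT16 VIP, where it was 2, and its group means lay between 7.76 and 7.83. Vcl passed the test in none of the comparisons, with CT16 VIP minus CT10 at -0.04 (95% interval -0.27 to 0.20) and CT12 VIP minus CT10 at 0.03 (-0.14 to 0.19). CT16 VIP 1 was again its highest array, at 8.11 against 7.58 to 7.72 for the rest of the group. Its level had r = 0.64 with the number of detected probes over the 16 arrays.

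Actb encodes cytoplasmic beta-actin, the main filament protein of these cells and a widely used reference gene. Its 5 probes passed the test in none of the comparisons. Probe 1 read 11.22, 11.26, 11.30 and 11.53 in CT10 and 11.41, 11.26, 11.28 and 11.21 in CT12 VIP. It read 11.27, 11.39, 10.88 and 10.48 in CT12 Veh and 10.62, 10.98, 11.44 and 11.69 in CT16 VIP. The spread was thus wide in CT12 Veh (SD 0.41) and CT16 VIP (SD 0.48) and narrow in CT10 (SD 0.14) and CT12 VIP (SD 0.084).

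Actb probes 1, 2 and 3 followed each other over the 16 arrays (r = 0.95 to 0.98), and probes 4 and 5 followed them less (r = 0.42 to 0.60). All 5 were lower on arrays with more detected probes, with r between -0.61 and -0.48. The highest and the lowest CT16 VIP arrays of probe 1 are those with the fewest (8019) and the most (16923) detected probes. Without CT16 VIP 3 and CT16 VIP 4, which had fewer than 10000 detected probes and leave 2 arrays in that group, CT16 VIP minus CT10 was -0.52 for probe 1 (limma adjusted p = 0.0461) and -0.54 for probe 2 (limma adjusted p = 0.0267), against -0.14 and -0.16 on all arrays. Without these and CT12 VIP 1, CT16 VIP minus CT12 VIP of probe 2 was -0.49 (limma adjusted p = 0.0268) against -0.13 on all arrays. When the fit took detected probes per array as a covariate, none of these 3 passed the threshold, and the part of detection in the Actb levels was not tested further.

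**Figure D3:**
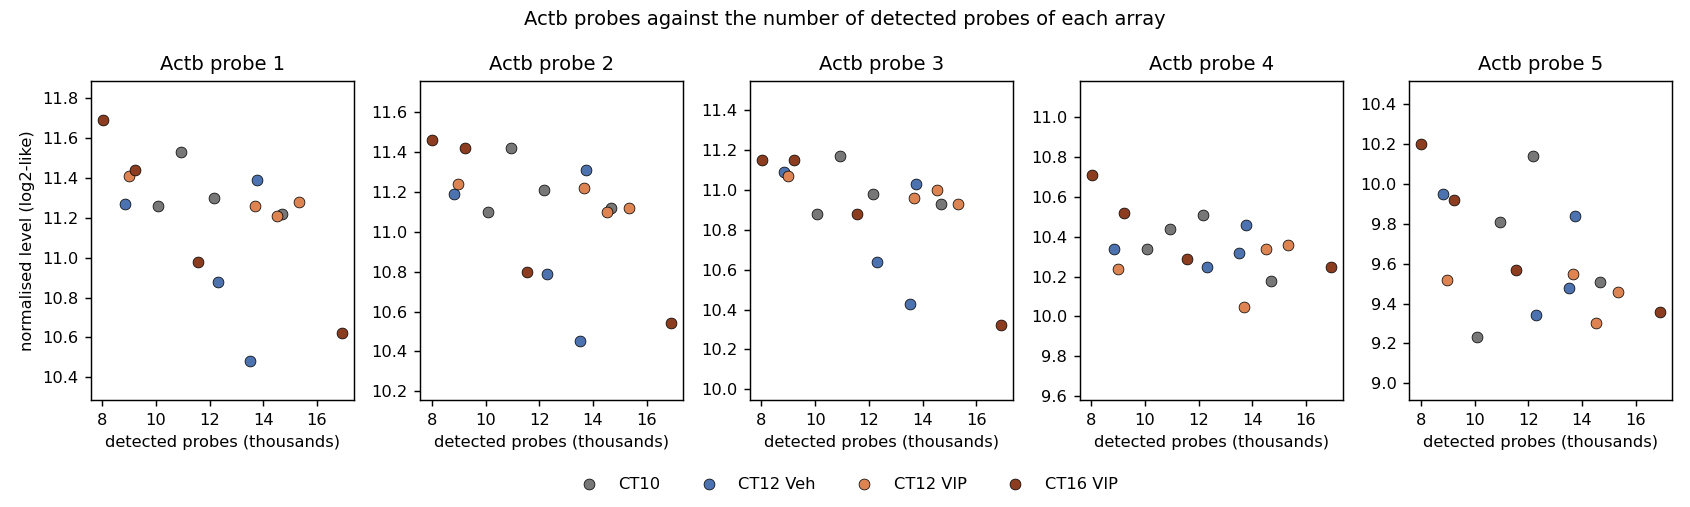
Normalised level (log2-like, y axis) of the 5 Actb probes against the number of detected probes of each array (x axis), with 1 point per array coloured by group. The levels fall towards arrays with more detected probes, and CT16 VIP spans nearly the whole range on both axes.

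Tagln2 encodes transgelin 2, a relative of the smooth muscle protein SM22. It was detected on 1 array only, of CT16 VIP, and entered 3 comparisons through that group. Its means lay between 7.45 and 7.59, at the level of undetected probes, and no fold is given. Tagln2 passed the test in none of these 3.

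Over the set, 3 of 12 probes tested passed an adjusted p of 0.05 in CT12 VIP vs. CT12 Veh, all higher, where 4.19% of all probes passed and 2.73% were higher. Nothing is read from that count. The arrays of the groups did not overlap for 3 of the 12, and for 9.65% of all probes. In CT16 VIP vs. CT10 it was 3 of 13, all higher, against 3.07% of all probes (1.97% higher), and the same count did not overlap, against 9.76%. These are the Tpm4 and Tpm3 probes, known to be higher with VIP when the set was chosen, so nothing is read from this count either. In CT16 VIP vs. CT12 Veh it was 3 of 13, all higher, against 3.56% (2.1% higher), with 3 not overlapping against 9.51%. In CT12 VIP vs. CT10 it was 4 of 12, all higher, against 2.8% (2.37% higher), with 4 not overlapping against 8.67%. The last 2 comparisons each reuse a group of the comparison that chose the set, and nothing is read from their counts. The called probes come from Tpm4 and Tpm3, and in CT12 VIP vs. CT10 also Srf, so they stand for 2 or 3 genes.

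In CT16 VIP vs. CT12 VIP, limma called 0 of the 13 probes, against 1.79% of all probes (0.832% higher), with 3 at an unadjusted p under 0.05 (Tpm3, Srf and Actb probe 5) and 0 not overlapping against 7.82% of all. In CT12 Veh vs. CT10, limma called 0 of 12 against 0.00594% of all probes, with 3 at an unadjusted p under 0.05 (Srf, Tpm4 probe 1 and Actb probe 1). There 2 did not overlap (Srf and Tpm4 probe 2), against 3.83% of all. Both comparisons reuse a group of the comparison that chose the set, and nothing is read from these counts. The median difference over the set was 0.09 in CT16 VIP vs. CT10, against -0.002 over all probes.

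Other genes of the pathway were counted by list, beside 2.73% of all probes higher in CT12 VIP vs. CT12 Veh. Of the SRF and TCF immediate early targets, 11 of 14 measured genes were higher in CT12 VIP than in CT12 Veh, with Fosb, an AP-1 subunit, at +1.43 and Egr1, a zinc finger factor, at +1.59. From CT12 VIP to CT16 VIP, 11 of 14 fell, Fosb by 1.29 (SE 0.12, limma adjusted p = 4.18e-05) and Ier3, an inhibitor of cell death, by 1.05 (SE 0.085, limma adjusted p = 8.03e-06). In CT16 VIP vs. CT10, 9 of 13 were still higher, with Egr1 at 1.55 (SE 0.076, limma adjusted p = 1.10e-07) and Zfp36, which destabilises mRNAs, at 0.76 (SE 0.083, limma adjusted p = 0.000112). The list's median difference was 0.54 there. This list was written with the responses of these genes known, so its counts are no independent evidence of its direction, and no difference between lists was tested.

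Of the SRF and MRTF cytoskeletal targets outside the set, 2 of 25 were higher in CT12 VIP than in CT12 Veh, with a median of 0.03. They were Thbs1 (thrombospondin 1, a matrix protein) at +0.48 and Ccn1 (a matrix-associated signalling protein) at +0.30. Thbs1 was not detected on any CT12 Veh array and entered through CT12 VIP, and the floor gives at least 1.09-fold. Neither gene was tested when detection on every array of a group was required. Leaving out any of CT12 VIP 2, 3 or 4, or CT12 Veh 2, 3 or 4, lost the call of Ccn1, with differences of 0.24 to 0.33. The call of Ccn1 was also lost with neqc.

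In CT16 VIP vs. CT10, 3 of 25 cytoskeletal targets were higher and 0 lower by limma, against 1.97% of all probes higher. Of the 25, 8 had an unadjusted p under 0.05, and the median was 0.05. Flnc, the muscle-type filamin that crosslinks actin, rose by 0.40 (SE 0.067, limma adjusted p = 0.00359). Actn1, the crosslinker alpha-actinin 1, rose by 0.43 (SE 0.084, limma adjusted p = 0.0114), which became 0.40 (adjusted p = 0.0523) without CT10 5 and 0.35 (adjusted p = 0.0731) without CT16 VIP 3 and CT16 VIP 4. Ccn1 was not detected on any CT10 array and entered the comparison through CT16 VIP, where it is higher. Its values and its part in the count are therefore only a description. It differed by 0.32 (SE 0.068, at least 1.06-fold). Leaving out any of CT10 1, CT10 5, CT16 VIP 2 or CT16 VIP 4 lost its call. When detection on every array of a group was required, it was not tested.

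Actn1 also rose from CT12 VIP to CT16 VIP, by 0.45 (SE 0.075, limma adjusted p = 0.00528), and was higher in CT16 VIP than in CT12 Veh by 0.41 (SE 0.081, limma adjusted p = 0.00823). All 18 and all 17 alternatives kept these calls, with differences of up to 1.14 and 0.99. Thbs1 fell over the same interval by 0.34 (SE 0.067, limma adjusted p = 0.0151, at least 1.05-fold), and its adjusted p was 0.052 to 0.0744 without CT12 VIP 3, CT12 VIP 4 or CT16 VIP 2. In these data Actn1 thus differed between the VIP groups while Tpm4 and Tpm3 did not pass that test. That test reuses the CT12 VIP arrays with which Tpm4 and Tpm3 were chosen, and the difference between Actn1 and the tropomyosins was not tested.

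**Figure D4:**
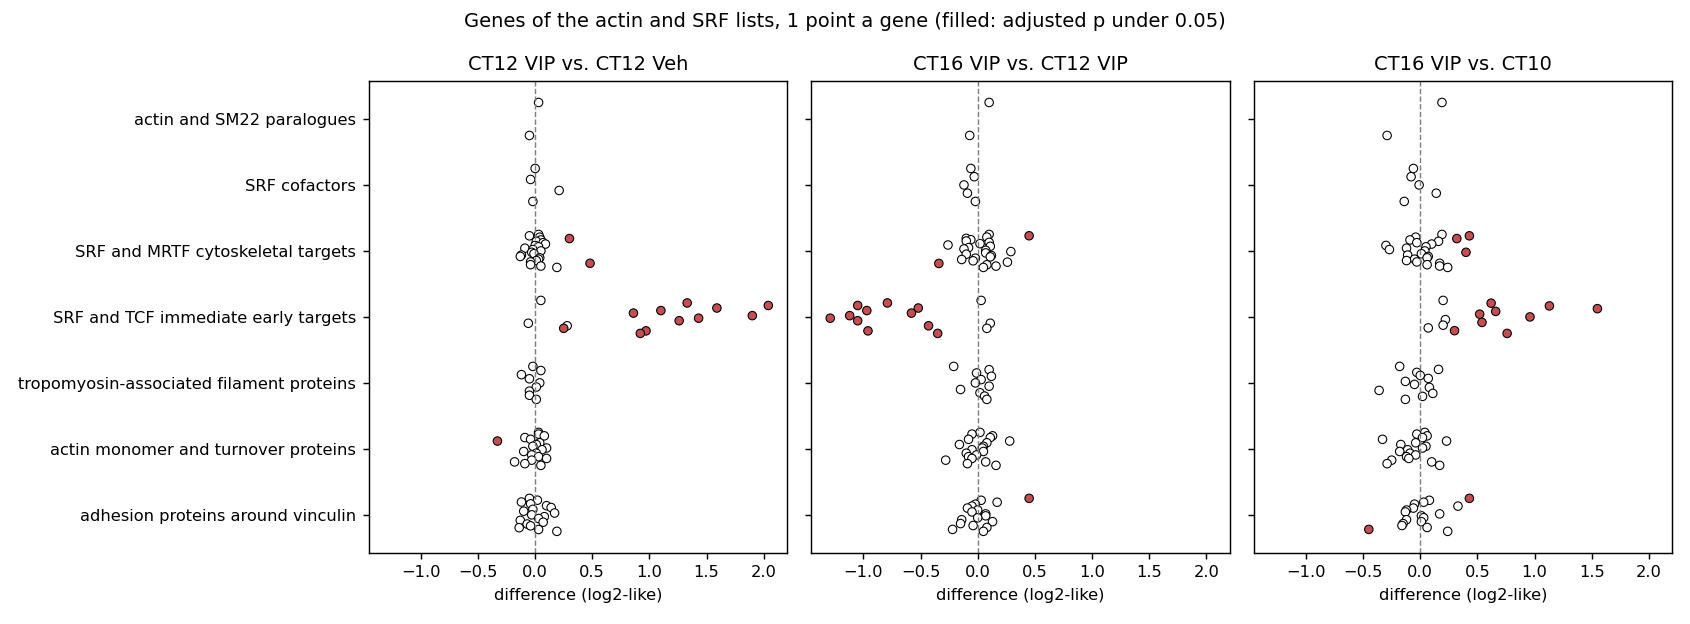
Differences (log2-like, x axis) of genes in 7 lists (rows, 1 point per gene) in 3 comparisons (panels), with red points at an adjusted p under 0.05. The immediate early targets lie far to the right in CT12 VIP vs. CT12 Veh and to the left in CT16 VIP vs. CT12 VIP, and the other lists lie around 0 with few red points.

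The proteins that share filaments with tropomyosin (tropomodulins, caldesmon, calponins, non-muscle myosin II) gave no calls by limma in any comparison, with 9 to 12 of 20 genes measured and at most 3 at an unadjusted p under 0.05. The SRF cofactors gave none among 4 or 5 measured, with at most 1 at an unadjusted p under 0.05. Measured were Mrtfb, the only MRTF with a value, Elk1, Elk3, Elk4 and, in comparisons with CT16 VIP, Myocd. The actin and SM22 paralogues measured were Acta2, of smooth muscle, and Tagln3, of neurons, and neither passed the test. In CT16 VIP vs. CT10 they were at 0.19 (SE 0.16) and -0.29 (SE 0.081, limma adjusted p = 0.085).

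Among 20 measured proteins of actin turnover, in CT12 VIP vs. CT12 Veh 1 was lower, Arpc5, whose groups overlapped, a subunit of the Arp2/3 complex, at -0.33. Of 18 alternatives, 9 kept the Arpc5 call. It was lost with neqc, with log2 quantile values, with all arrays in 1 fit and without arrays under 10000 detected probes. It was also lost without CT12 VIP 4 or any of CT12 Veh 1, 2 and 4, with differences of -0.32 to -0.27. The monomer-binding profilin Pfn2 was lower in CT16 VIP than in CT12 Veh by 0.32, a call that 6 of 17 alternatives kept and that gave -0.20 without the 3 arrays under 10000 detected probes (CT12 Veh 1, CT16 VIP 3 and CT16 VIP 4). Of the adhesion proteins around vinculin, Actn1 apart, only Tns3 (tensin 3) passed, at -0.45 in CT16 VIP vs. CT10 and -0.36 in CT16 VIP vs. CT12 Veh. Of its alternatives, 10 of 17 and 11 of 17 kept these calls.

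Tropomyosins and SRF targets are abundant in smooth muscle, pericytes and fibroblasts, and in such bulk samples fewer cells of a type and less RNA per cell cannot be told apart. Of 11 mural and smooth muscle markers 5 have a probe, and their mean level per array was 7.67 to 7.79 at CT10, 7.74 to 7.84 with vehicle, 7.69 to 7.83 at 2 h of VIP and 7.79 to 7.98 at 6 h. Cnn1 and Rgs5 were not detected in the first 3 groups, nor Kcnj8 at CT10 or at 2 h of VIP. None of those tested passed in any comparison, and 2 of 5 had an unadjusted p under 0.05 in CT16 VIP vs. CT10. Of 8 fibroblast markers 3 have a probe, and their mean level was 7.91 to 8.17, 7.75 to 8.09, 8.18 to 8.31 and 8.08 to 8.22 in the same order, with Fn1 not detected with vehicle. It did not overlap between CT12 Veh and CT12 VIP, and Pdgfra was higher there by 0.63 (0.60 without CT12 VIP 4 and 0.61 without CT12 Veh 3, when it was not called). The median difference of the 3 markers there was 0.16. The Pdgfra call was also lost with neqc, with log2 quantile values and with all arrays in 1 fit. The part of mural cells, smooth muscle cells and fibroblasts in the Tpm4 and Tpm3 differences was not tested.

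Ependymal markers, all 8 of which have a probe, had mean levels of 8.28 to 8.64 at CT10, 8.56 to 8.74 with vehicle, 8.32 to 8.40 at 2 h of VIP and 8.15 to 8.45 at 6 h, so both VIP groups lay below CT12 Veh. Of the 8, 5 were called lower in CT12 VIP vs. CT12 Veh, where 4.19% of all probes were called in either direction. Of these 5, Dynlrb2, Hdc, Rsph1 and Rarres2 were not called with all arrays in 1 fit, nor Hdc, Rsph1 and Rarres2 with neqc. Called lower in CT16 VIP vs. CT12 Veh were 3, against 3.56% of all probes in either direction. Of these 3, neqc lost 2 (Dynlrb2 and Rarres2). Of 17 alternatives, 8 kept the call of Tmem212, 11 that of Dynlrb2 and 15 that of Rarres2. By limma 0 were called in CT16 VIP vs. CT10, where 2 had an unadjusted p under 0.05. In that last comparison both Tpm4 probes and Tpm3 were higher, and the part of ependymal cells was not tested. The other cell type lists (astrocytes, microglia, oligodendrocytes, endothelial cells) gave at most 1 call in any comparison.

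The named genes whose levels most resembled Tpm4 probe 1 over the 16 arrays were Cstb (r = 0.948), a protease inhibitor, Crem (0.947), a CRE-binding factor, Bag3 (0.947), a co-chaperone, Skil (0.943), a repressor of TGF-beta signalling, and Kctd10 (0.934), a ubiquitin ligase adaptor. Tpm3 had r = 0.820 and Srf r = 0.329 with it. Those most like Srf were Cisd2 (r = 0.867), Sstr2 (0.857), Fam131a (0.847), Hmgxb3 (0.845) and Usp38 (0.822). These are descriptions over arrays that share groups, and for Tpm4 they follow the step between VIP and other arrays.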

How the data were processed

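RNA of 16 SCN slice samples, amplified and labelled, was measured on Illumina MouseWG-6 v2 arrays, and groups were taken from the labels. The authors deposited raw bead intensities with a detection p-value per probe (45281 probes). From these the authors made the deposited log2-like values in lumi, whose version is not given in the sources used here, by a detection filter of 0.01, variance stabilisation and quantile normalisation. These are normalised over all arrays (19893 probes), over CT12 VIP with CT12 Veh (17605) and over CT16 VIP with CT12 VIP (19110). Probes were named through the platform annotation and RefSeq identifiers, 16733 with a name and 3160 without.

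Each comparison was fitted on its 8 arrays in R 4.3.3 with limma 3.58.1 (2-sided, Benjamini-Hochberg over all probes at 0.05, no covariates), on the pairwise values where these exist and otherwise on the global values of probes detected on at least 1 of the 8 arrays. The fits were tested on simulated data. A gene of a list stands for its probe of highest mean signal. The rule for named genes was every member, up to 4 called genes per list and comparison with the largest difference, and the 5 genes most correlated with Tpm4 and Srf. Genes below background on every array of a group are given as at least a fold over the lowest signal among detected probes of each array, from means of normalised values. Members and the 17 gene lists were chosen with earlier results of these arrays known. The results of 1 list are not reported here. Alternatives were neqc, log2 quantile values, global values, stricter or no detection filters, a fit of all arrays, a replicate block, array weights, unadjusted p-values, detected probes per array as a covariate, the mean of a gene's probes, and leaving out arrays. Array slides are not given in the sources used here. The number of arrays limits the precision.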

Additional observations from a re-analysis of the deposited data

Results flagged for a closer look

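Of the 52 groups of 4 arrays examined (13 probes in 4 groups), 2 held an array far from the other 3 by Dixon's criterion, for which chance gives about 1 in 20. Tpm1 probe 2 read 7.85 on CT10 3, against 7.68 to 7.71 on the rest of CT10. Tpm4 probe 2 read 7.72 on CT12 Veh 2, against 7.62 to 7.63 on the rest of CT12 Veh, and lay far below the lowest VIP array (8.26).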

How the results depend on the processing

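The counts of called probes were 3 in CT12 VIP vs. CT12 Veh, then 0 in CT16 VIP vs. CT12 VIP, 3 in CT16 VIP vs. CT12 Veh, 0 in CT12 Veh vs. CT10, 4 in CT12 VIP vs. CT10 and 3 in CT16 VIP vs. CT10. At an unadjusted p under 0.05 the first of these was 5, CT16 VIP vs. CT12 VIP gave 3 and CT12 Veh vs. CT10 gave 3. Leaving out the arrays under 10000 detected probes, 3 of them in the first and 2 in the second comparison, CT16 VIP vs. CT12 VIP gave 1 and CT16 VIP vs. CT10 gave 5, through Actb probes. Leaving out 1 array at a time gave 0 to 1 for CT16 VIP vs. CT12 VIP (Srf without CT16 VIP 1, Tpm3 without CT16 VIP 4), and 3 to 3, 3 to 3, 0 to 0, 4 to 4 and 3 to 3 for the others in the order above. No call changed sign under any alternative. Same-numbered arrays deviated from their group means with correlations of -0.34 to 0.272, over 0.1 in 4 of 21 pairs, so the numbers were not taken as pairs. With the replicate block, Tpm3 in CT12 VIP vs. CT10 lost its call (adjusted p = 0.0752, leaving 3) and no other call of these probes changed. With it, the cytoskeletal targets called in CT16 VIP vs. CT10 were 1 in place of 3, with Actn1 (adjusted p = 0.106) and Ccn1 (0.195) lost, and the adhesion proteins 0 in place of 2. Ccn1 in CT12 VIP vs. CT10 (0.0863) and Thbs1 in CT16 VIP vs. CT12 VIP (0.0759) also lost their calls. With neqc, the immediate early targets called in CT16 VIP vs. CT12 VIP were 7 in place of 11. The tropomyosin-associated proteins and the actin and SM22 paralogues had 1 call each in CT16 VIP vs. CT10 when detected probes per array were a covariate. Averaging a gene's probes gave 2, 0, 2, 0, 3 and 2 genes. Vcl, Tagln2 and Tpm4 probe 2 lie near background, where variance stabilisation compresses differences.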
